A study of Mus musculus with 4 samples.

Results

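The genes described here encode enzymes that cut the extracellular matrix and the inhibitors that hold them in check: the matrix metalloproteinase genes Mmp2, Mmp3, Mmp13 and Mmp14, the ADAMTS protease genes Adamts1 and Adamts5, the fibroblast activation protein gene Fap, and the inhibitor genes Timp1, Timp2 and Timp3. They were chosen by name, and every probe set annotated to one of these symbols alone was taken, which gave 21 probe sets for 10 genes out of 22690 probe sets and 12393 named genes. The cells were mouse embryonic fibroblasts in culture, of a strain the labels write as C57/BJ6, and RNA was read on 1 Affymetrix array for each of 4 groups. The groups were Npm1+/+ (called wild type) total RNA, Npm1+/- (called heterozygote) total RNA, Npm1+/+ ribosome-bound RNA and Npm1+/- ribosome-bound RNA, the last pair called polysome RNA. The polysome RNA came from sucrose gradient fractions, and the series asks whether loss of Npm1, the nucleophosmin gene, alters which RNAs are held on ribosomes. The labels name no number of embryos or cultures behind an array, no treatment and no embryo age.

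Fibroblasts build the collagen-rich matrix around them and also remodel it. Matrix metalloproteinases and ADAMTS enzymes are zinc-dependent proteases made as inactive precursors, and TIMP proteins block them by occupying the active site. The balance is not a simple opposition, since TIMP2 also bridges the precursor of MMP2 to the membrane protease MMP14, which activates it. FAP belongs to another class, the membrane-bound serine proteases, and is not a target of TIMPs.

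All values are log2 probe set values from RMA, and a difference of 1 is 2-fold. With 1 array per group no difference has replicate error and no test was run. Variation between arrays or cultures could therefore not be measured, and a difference called beyond the SD below may still be such variation. The yardstick used instead was the disagreement between the 2 brightest probe sets of the same gene, read on the same arrays. It was taken over 2700 genes with at least 2 probe sets that reached the floor. Between genotype labels its SD was 0.32 (total RNA) and 0.28 (polysome RNA). For the fraction labels it was 0.28 under the wild-type label and 0.24 under the heterozygote label. A gene was called measured when its brightest probe set reached the median of all values, 7.53, on at least 1 array, and this value is called the floor. Measured were 7179 genes, and 8 of the 10 members were among them. Probe sets of different genes bind with different strength, so levels are compared only within a gene.

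The targeted gene, Npm1, hardly differed between the genotype labels. At the brighter of its probe sets it read 11.91 (wild type) and 11.96 (heterozygote) in total RNA, and 12.93 and 12.84 in the polysome libraries. The other probe set differed by 0.07 and 0.06 between genotype labels. Whether either probe set covers the inactivated stretch is unknown, so they may check nothing, and all directions below are between libraries by their label. The array medians lay between 7.47 and 7.59. All 10 fibroblast markers were measured, with the collagen gene Col1a2 at 14.10 to 14.30. Under the heterozygote label 8 of the 10 were lower in each RNA, with medians of -0.16 in total and -0.16 in polysome RNA. Thy1 (0.56 and 0.47) and Dcn (0.23 and 0.02) were higher. Over all measured genes the medians were 0.19 and 0.11. None of 6 epithelial markers and 1 of 6 endothelial markers (Kdr) reached the floor, and of the osteoblast markers, 3 of 6 were on the array and none reached it. Of the chondrocyte markers 1 of 6 did, the cartilage collagen Col2a1, at 10.96 in wild-type total, 9.99 in heterozygote total, 10.12 in wild-type polysome and 9.36 in heterozygote polysome RNA. Of the smooth muscle markers 4 of 5 were measured, with Acta2 between 14.17 and 14.28.

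**Figure D1:**
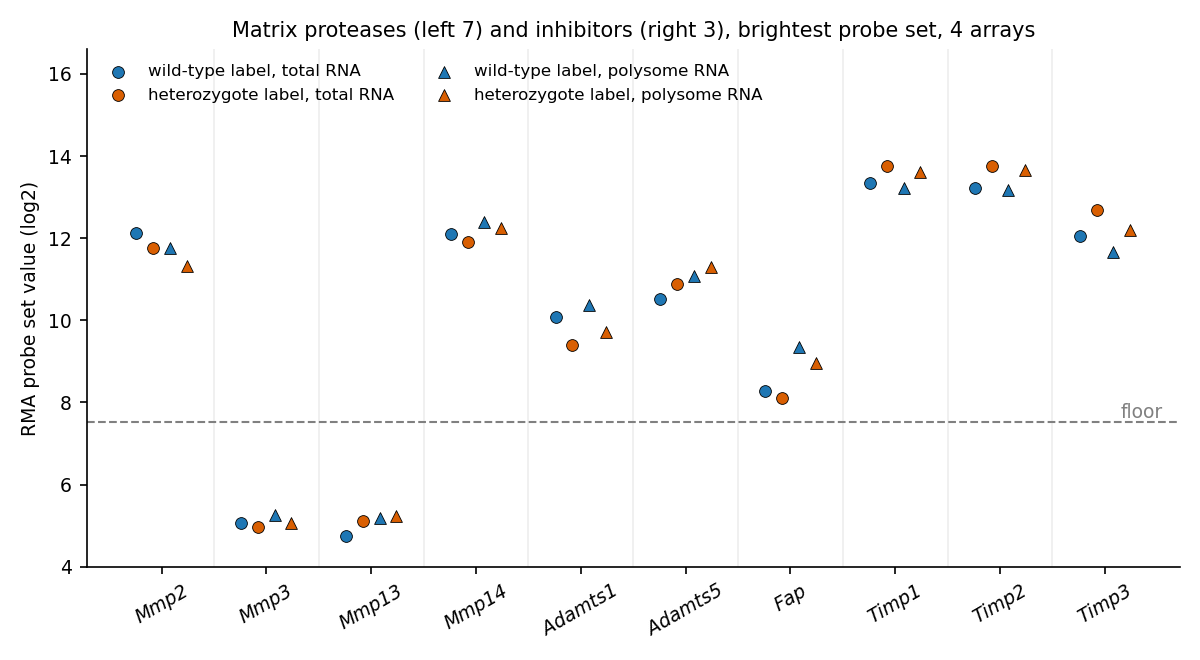
The log2 value (y axis) of the brightest probe set of each member (x axis) on each of the 4 arrays, with colour for the genotype label and shape for the RNA, and the floor of 7.53 dashed. Mmp3 and Mmp13 lie below the floor on all 4 arrays, and for each Timp gene both orange points lie above both blue points; heights are not comparable between genes.

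Between the genotype labels, the inhibitor genes were higher and most of the protease genes lower in the libraries labelled heterozygote, and every one of these differences was below 2-fold. All 3 Timp genes were higher, with a median of 0.53 in total and 0.49 in polysome RNA. Of the 5 measured protease genes 4 were lower, with a median of -0.20 in total and -0.40 in polysome RNA, and Adamts5 was the one that was higher. The median of all 8 measured members, 0.09 in total and 0.04 in polysome RNA, lay close to 0 because the directions opposed each other. Over all measured genes the median was 0.19 and 0.11. None of the 8 members was past 2-fold in either RNA, against 1.73% and 1.25% of all measured genes. At 1.5-fold there were 2 of 8 in total RNA (Adamts1 and Timp3) against 13.7% of all measured genes, and 1 of 8 in polysome RNA (Adamts1) against 7.94%. Differences beyond the SD between probe sets were found for 6 of 8 members in each RNA, against 49.5% and 39.6% of all measured genes.

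Timp3, whose protein stays bound to the matrix and also inhibits ADAMTS enzymes, had the largest difference of the inhibitors at the brightest probe sets. It read 12.05 in wild-type total, 12.69 in heterozygote total, 11.65 in wild-type polysome and 12.19 in heterozygote polysome RNA. Both libraries labelled heterozygote were above both labelled wild type. Such a separation, in either direction, was seen for 64.8% of all measured genes. The difference was 0.63 (1.55-fold) in total and 0.54 (1.45-fold) in polysome RNA, and 335 and 215 of the 7179 genes stood higher. Its probe sets did not all run the same way. Of the other 3, all measured, 2 gave 0.53 and 0.46 in total and 0.52 and 0.44 in polysome RNA, and the dimmest gave -0.17 and -0.20. With the mean of all probe sets the difference of Timp3 was the smallest of the 3, at 0.36 in total and 0.32 in polysome RNA, against 0.43 and 0.38 for Timp1 and 0.43 and 0.35 for Timp2.

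Timp2, the inhibitor that takes part in MMP2 activation, read 13.22 and 13.76 in wild-type and heterozygote total RNA, and 13.16 and 13.65 in the polysome libraries. Again neither heterozygote library overlapped with a wild-type one. The differences were 0.53 (1.45-fold) and 0.49 (1.40-fold). This gene has 6 probe sets, of which 5 reached the floor, and all 5 were higher, by 0.34 to 0.53 in total and by 0.10 to 0.58 in polysome RNA. Timp1, an inducible and secreted inhibitor, has a single probe set. It read 13.33, 13.77, 13.22 and 13.60 in wild-type total, heterozygote total, wild-type polysome and heterozygote polysome RNA, in that order. Both libraries labelled heterozygote were the higher ones, by 0.43 (1.35-fold) and 0.38 (1.30-fold). Relative to the median gene the 3 inhibitors remained higher, by 0.25 to 0.45 in total RNA. For Timp1 this distance, 0.25 in total and 0.27 in polysome RNA, was within the SD between probe sets. Of the 7179 genes 1509 and 874 stood higher than Timp1 in total and polysome RNA, and 807 and 345 higher than Timp2.

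Adamts1, which encodes a secreted protease of proteoglycans such as versican and aggrecan, had the largest difference of all members. It read 10.07 in wild-type total, 9.41 in heterozygote total, 10.37 in wild-type polysome and 9.72 in heterozygote polysome RNA. Both libraries labelled heterozygote were below both labelled wild type. The difference was -0.67 (1.59-fold lower) in total and -0.65 (1.57-fold lower) in polysome RNA, with 344 and 334 of the 7179 genes standing lower. The gene has 1 probe set. Adamts5, whose product is a major cartilage aggrecanase, stood on the other side. It read 10.52, 10.87, 11.08 and 11.30 in the same order of libraries. The differences were 0.35 and 0.22, and 0.48 and 0.11 at its other probe set. The polysome difference lay within the SD between probe sets, and after loess subtraction the differences were 0.12 and 0.07. In polysome RNA Adamts5 was above the median gene by 0.11.

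Mmp2, the gelatinase that degrades denatured collagen and basement membrane collagen, was lower at both of its probe sets. The brighter read 12.13 in wild-type total, 11.75 in heterozygote total, 11.75 in wild-type polysome and 11.31 in heterozygote polysome RNA. Within each RNA the library labelled heterozygote was the lower one, although the heterozygote total and wild-type polysome libraries lay level. The differences were -0.37 and -0.44 (1.30-fold and 1.35-fold lower), and -0.39 and -0.33 at the other probe set. Mmp14, the membrane-anchored collagenase that activates MMP2, read 12.11, 11.91, 12.40 and 12.25 in the same order. It was lower by less than the SD between probe sets, at -0.20 and -0.15. The other probe set gave -0.31 in total and -0.42 in polysome RNA. Fap, a membrane serine protease that cleaves denatured collagen, read 8.27 and 8.10 in total and 9.36 and 8.96 in polysome RNA. The difference in total RNA, -0.17, was within the SD between probe sets and that in polysome RNA, -0.40, beyond it. After loess subtraction the total RNA difference was -0.32, just beyond that SD.

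Over both genotype labels and both RNAs, 4 of the 8 measured members had both heterozygote libraries on one side of both wild-type libraries: the 3 Timp genes above and Adamts1 below. Among all measured genes the share was 64.8%, which is above that of the members. Of the 10 inhibitor probe sets that reached the floor 9 were higher in each RNA, and of the 8 protease probe sets 6 were lower in each RNA. These probe sets belong to 3 inhibitor and 5 protease genes, so they are not independent counts. Against the median gene, itself above 0, all 3 inhibitors stood above and 4 of the 5 proteases below in each RNA.

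**Figure D2:**
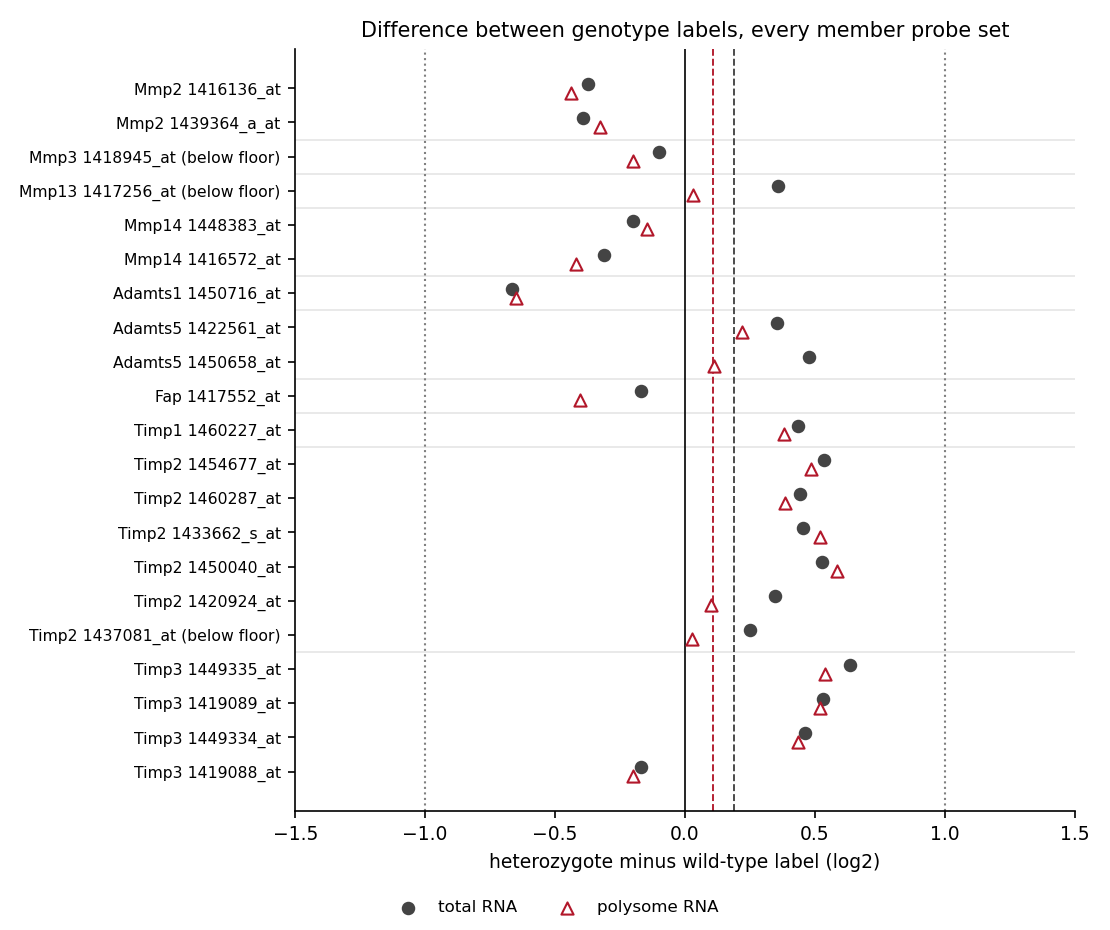
The heterozygote minus wild-type label difference (x axis, log2) for every member probe set (rows), in total RNA (filled circles) and polysome RNA (open triangles), with 2-fold limits dotted and the median of all measured genes dashed in the matching colour. Timp probe sets lie to the right except the last one of Timp3, at -0.17 and -0.20, and those of Mmp2, Mmp14, Adamts1 and Fap lie to the left.

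**Figure D3:**
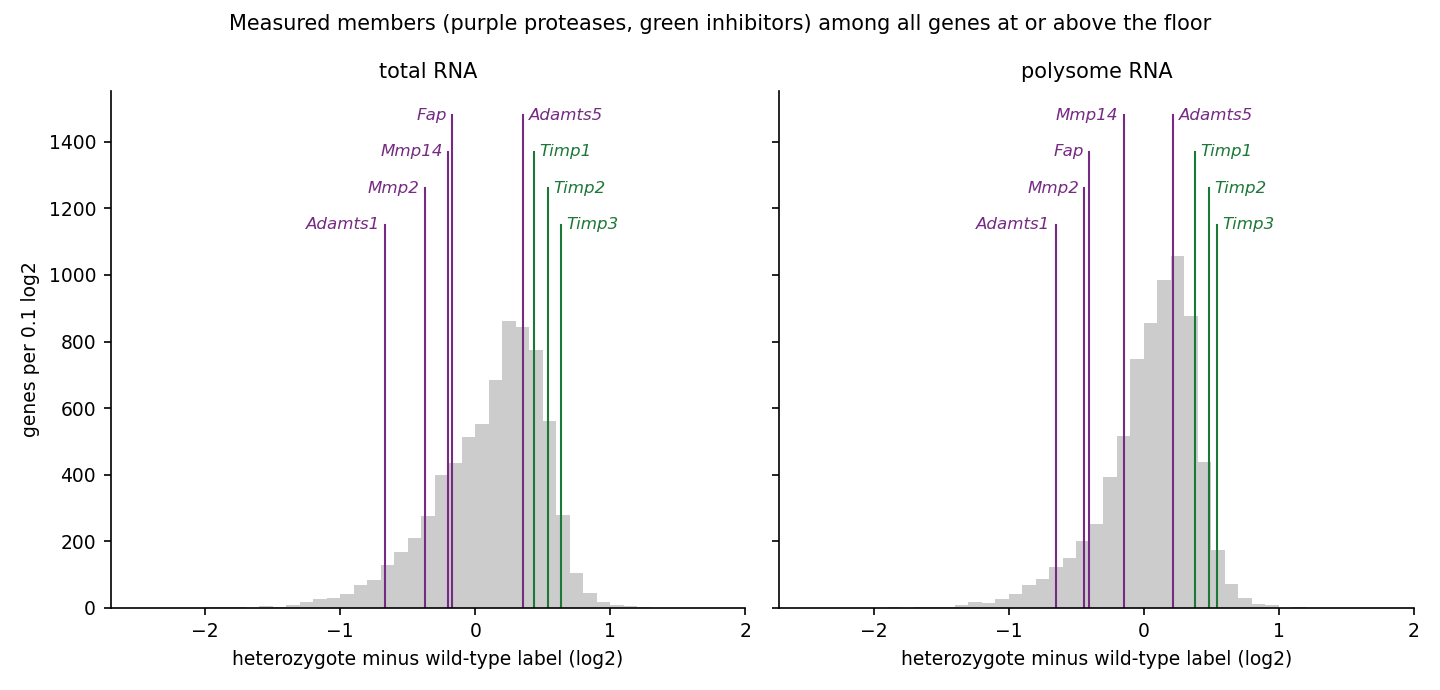
The number of genes (y axis) by heterozygote minus wild-type label difference (x axis, log2, in steps of 0.1) over the 7179 measured genes, with lines for the brightest probe sets of the 8 measured members. The Timp genes stand to the right and Adamts1, Mmp2, Mmp14 and Fap to the left of the median gene, which is at 0.19 in total and 0.11 in polysome RNA.

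The inhibitor to protease log ratio within an array is unaffected by a shift of the whole array. For each of the 15 pairs of a Timp gene with a measured protease gene, the change of this ratio from the library labelled wild type to that labelled heterozygote was above 0, with a median of 0.80 in total and 0.82 in polysome RNA. The pairs share genes, and their common direction follows from all 3 Timp differences lying above those of the 5 proteases. For Timp2 against Mmp2 the change was 0.91 in total and 0.92 in polysome RNA (1.88-fold and 1.90-fold), and for Timp2 against Mmp14 0.74 and 0.63. The widest change was that of Timp3 against Adamts1, at 1.30 and 1.19 (2.47-fold and 2.28-fold). The narrowest was Timp1 against Adamts5, at 0.08 and 0.16. The 15 pairs were formed by role alone, and not each is a pair of an inhibitor with its target. The 3 with Fap are examples that are not. These are ratios of RNA levels, and protein and activity were not measured.

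Mmp3 (stromelysin 1) and Mmp13 (collagenase 3), which fibroblasts are known to induce on cytokine or growth factor stimulation, were not measured above the floor on any array. Mmp3 read 5.05 in wild-type total, 4.95 in heterozygote total, 5.26 in wild-type polysome and 5.06 in heterozygote polysome RNA. Mmp13 read 4.74, 5.10, 5.19 and 5.22 in the same order. All of these values lie more than 2 log2 units under the floor, where a difference between arrays cannot be read as a difference in RNA. The Mmp13 difference of 0.36 in total RNA was 0.03 in polysome RNA.

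Both of these genes are textbook targets of AP-1, the dimer of Fos and Jun proteins, whose RNAs were higher in the libraries labelled heterozygote. Fos read 8.29 and 9.43 in wild-type and heterozygote total and 8.06 and 9.74 in polysome RNA. The promoters of Mmp3 and Mmp13 and those of the 3 Timp genes, which were higher together, are shown for this reason. They are RefSeq sequences of build GRCm38.p6, running from 250 bases before to 50 after the start of the gene on its own strand, and 7 of the 10 members had an entry. Capitals mark matches on either strand to 3 motifs. The first, TGANTCA, is the site that AP-1 dimers are known to bind. The next, GGGCGG, is the GC box bound by factors such as Sp1. The last, TATAAA, is the core of the TATA box, which positions the start of transcription. No 2 matches overlapped in the windows shown. The sequences lie at chr9:7445572-7445871 on the plus strand (Mmp3), chr9:7272264-7272563 on the plus strand (Mmp13), chrX:20869916-20870215 on the plus strand (Timp1), chr11:118355362-118355661 on the minus strand (Timp2) and chr10:86300162-86300461 on the plus strand (Timp3).
Mmp3: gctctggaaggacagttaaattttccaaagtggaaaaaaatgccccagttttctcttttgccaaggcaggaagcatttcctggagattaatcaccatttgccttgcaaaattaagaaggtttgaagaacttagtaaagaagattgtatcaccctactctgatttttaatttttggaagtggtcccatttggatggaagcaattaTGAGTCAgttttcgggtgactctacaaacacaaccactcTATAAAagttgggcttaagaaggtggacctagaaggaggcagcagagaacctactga
Mmp13: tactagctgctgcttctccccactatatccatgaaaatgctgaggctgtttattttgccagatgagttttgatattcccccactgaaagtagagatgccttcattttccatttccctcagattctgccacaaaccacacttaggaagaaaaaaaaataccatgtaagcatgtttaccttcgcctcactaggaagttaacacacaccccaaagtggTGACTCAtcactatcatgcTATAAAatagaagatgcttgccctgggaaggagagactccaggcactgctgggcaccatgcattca
Timp1: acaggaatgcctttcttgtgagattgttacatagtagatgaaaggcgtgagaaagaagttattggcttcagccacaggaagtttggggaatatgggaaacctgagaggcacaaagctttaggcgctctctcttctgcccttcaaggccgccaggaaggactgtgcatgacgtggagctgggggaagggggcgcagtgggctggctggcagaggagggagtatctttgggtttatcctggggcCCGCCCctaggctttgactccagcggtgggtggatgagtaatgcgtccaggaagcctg
Timp2: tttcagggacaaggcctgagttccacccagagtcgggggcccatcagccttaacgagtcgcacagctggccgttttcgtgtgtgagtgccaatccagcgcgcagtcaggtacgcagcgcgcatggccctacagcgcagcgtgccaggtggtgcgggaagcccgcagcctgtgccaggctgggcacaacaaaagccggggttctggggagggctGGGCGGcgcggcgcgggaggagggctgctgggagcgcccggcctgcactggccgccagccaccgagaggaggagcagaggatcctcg
Timp3: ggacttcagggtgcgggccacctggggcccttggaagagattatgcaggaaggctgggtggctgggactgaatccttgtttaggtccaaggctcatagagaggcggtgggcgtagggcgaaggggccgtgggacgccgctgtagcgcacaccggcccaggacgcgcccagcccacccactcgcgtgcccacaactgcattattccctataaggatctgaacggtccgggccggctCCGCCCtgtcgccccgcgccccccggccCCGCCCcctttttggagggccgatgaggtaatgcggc

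The AP-1 letters were found once in the Mmp3 window, beginning 46 bases before the start, and once in the Mmp13 window, 35 bases before it. Both windows also hold 1 TATA box. Of 32851 promoter windows of this length 7.81% hold the AP-1 letters and 13.6% the TATA box. None of the 3 Timp windows holds an exact match to either. The GC box, found in 35.7% of all windows, occurs once in the Timp1 and Timp2 windows and 2 times in that of Timp3. The other windows, of Mmp14 and Adamts1, hold 2 and 3 GC boxes and no AP-1 letters, and that of Adamts1 has 1 TATA box. Of the 7 members with a window, those with the AP-1 letters, Mmp3 and Mmp13, were the ones below the floor. Mmp2, Adamts5 and Fap had no window. Only exact matches were sought, so sites with other letters would be missed. The Timp1 window, for example, holds tgagtaa, which differs from the AP-1 letters at 1 base and was not counted. The part of AP-1 in the member values was not tested. The letters are a description of the sequence and do not show binding.

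Polysome RNA was then compared with total RNA under each genotype label, which by the labels asks about ribosome loading. Whether both fractions came from the same cultures is not stated in the labels. The protease genes were higher in the polysome libraries, with the exception of Mmp2, and the inhibitor genes lower. Of the 5 measured proteases 4 were higher under both labels, with medians of 0.29 (wild type) and 0.34 (heterozygote). All 3 inhibitors were lower under both, with medians of -0.11 and -0.17. The median of all 8 was 0.12 and 0.10, and that of all measured genes 0.14 and 0.07. Against that median gene, itself above 0, 4 of the 5 proteases stood above and all 3 inhibitors below under both labels. Past 2-fold was 1 of 8 members under the wild-type label, against 0.919% of all measured genes, and 0 of 8 under the heterozygote label, against 0.766%. Beyond the SD between probe sets were 6 of 8 under each label, the same genes in both, against 31.3% and 26% of all measured genes.

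Fap was the member past 2-fold. Its difference was 1.09 (2.13-fold higher in the polysome library) under the wild-type label. Under the heterozygote label it was 0.85 (1.81-fold). Of the 7179 genes 30 and 42 stood higher. Both polysome libraries lay above both total libraries. It rests on 1 probe set, and with other scalings the first difference was as low as 0.92, short of 2-fold. Adamts5 was higher by 0.56 and 0.43, with 0.29 and -0.07 at its other probe set. Mmp14 was higher by 0.29 and 0.34, with 0.47 and 0.36 at its other probe set, and Adamts1 by 0.29 and 0.31.

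Mmp2 and Timp3 stood at the other end. Mmp2 was at -0.38 under the wild-type and -0.44 under the heterozygote label, and its other probe set gave -0.51 and -0.44. The difference of Timp3 was -0.40 and -0.49, with -0.41 to -0.69 and -0.43 to -0.72 at its other 3 probe sets. All 4 of its probe sets were lower here, including the one that ran against the others between genotype labels. Timp1, at -0.11 and -0.17, and Timp2, at -0.06 and -0.11, differed by less than the SD between probe sets. Under the median gene they lay by 0.26 and 0.24 (Timp1) and by 0.20 and 0.18 (Timp2). Both polysome libraries were on one side of both total libraries for 4 of 8 members (Mmp14, Adamts5 and Fap above, Mmp2 below), against 31.2% of all measured genes. For Mmp2 this rests on the wild-type polysome and heterozygote total libraries, which both read 11.75 at 2 decimals.

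Several macrophage markers were higher in the polysome libraries. Of 14 markers 9 were measured, and 6 of these were past 2-fold under both genotype labels. Among all measured genes the shares were 0.919% under the wild-type and 0.766% under the heterozygote label. The lysozyme gene Lyz2, at 2.23 and 2.25, was among the 6. For 5 of the 6 (C1qa, C1qb, C1qc, Ctss and Fcer1g) the total RNA values were below the floor, so the sizes are uncertain. These 5 counted as measured only through polysome libraries, where they were high, so the count of 6 partly follows from the floor. Others differed little, such as Csf1r, at 0.05 and -0.22, and Laptm5, at 0.14 and 0.04. Between genotype labels all 9 were higher under the heterozygote label in total RNA and 7 of 9 in polysome RNA, with medians of 0.25 and 0.27. Over all measured genes the medians were 0.19 and 0.11. Both total RNA values of Cd53, as of the 5 markers above, were below the floor. C1qc and Cd53 reached the floor only in the heterozygote polysome library, so their place in the genotype counts follows from a high value there. These counts describe the libraries only. The sum of the 14 linear values, which adds probe sets of different genes and is a description only, was 1373 in wild-type total, 1663 in heterozygote total, 3196 in wild-type polysome and 4178 in heterozygote polysome RNA. The pan-leukocyte marker Ptprc stayed between 4.53 and 4.87, far below the floor. The part of these markers in the protease and inhibitor values, between fractions or between genotype labels, was not tested. In bulk RNA, fewer cells of a type and less RNA per cell cannot be told apart.

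**Figure D4:**
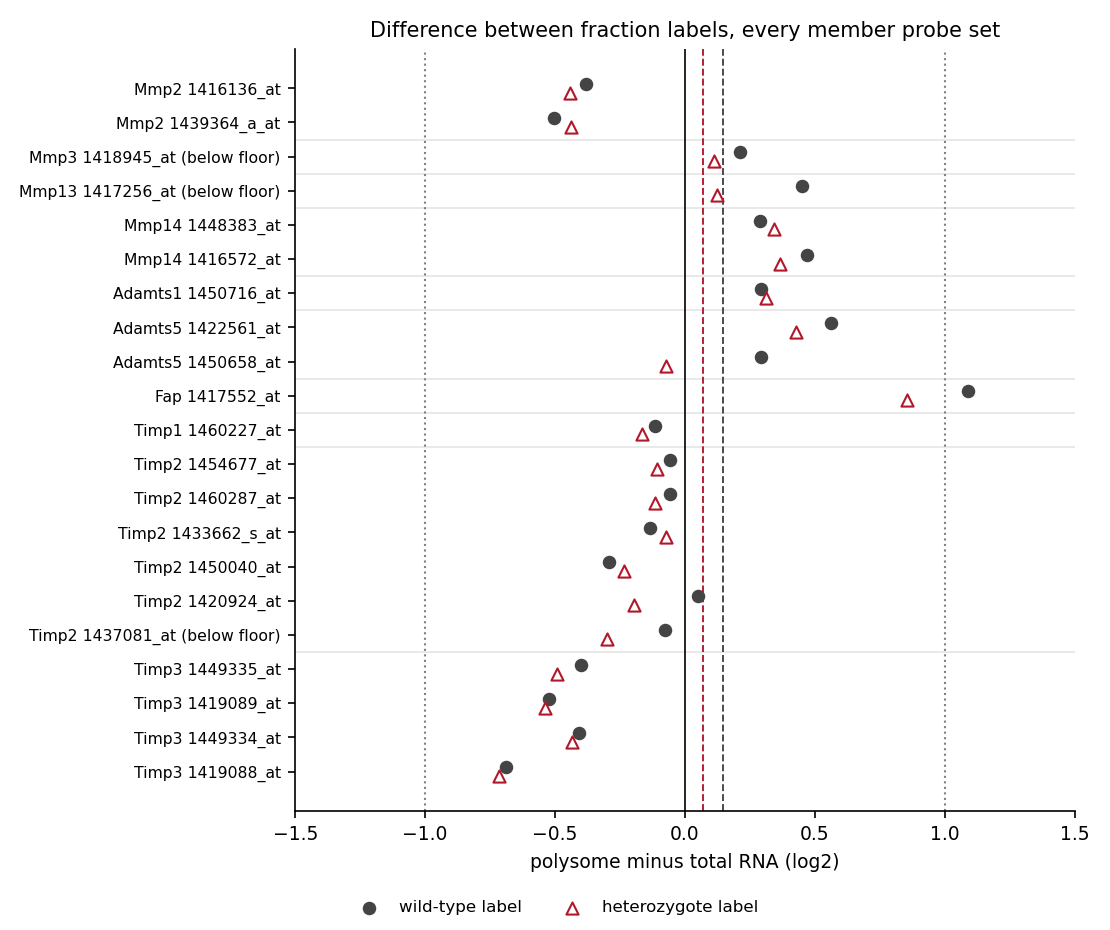
The polysome minus total RNA difference (x axis, log2) for every member probe set (rows), under the wild-type label (filled circles) and the heterozygote label (open triangles), with 2-fold limits dotted and the median of all measured genes dashed in the matching colour. Fap lies farthest to the right, at 1.09 and 0.85, and the probe sets of Mmp2 and Timp3 lie to the left.

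The association difference, which is the polysome minus total difference under the heterozygote label minus that under the wild-type label, was then compared over the members at their brightest probe sets. The 8 measured members had a median of -0.06, against -0.07 over all measured genes, and the largest in size was that of Fap, at -0.23. None was past 2-fold, and neither was any of the 7179 genes (0%). Beyond the SD between probe sets of 0.22 was 1 of 8 members, Fap, against 21.9% of all measured genes. For Timp1, Timp2 and Timp3 the values were -0.05, -0.05 and -0.09, and for Mmp2, Mmp14 and Adamts1 -0.06, 0.05 and 0.02. Adamts5 was at -0.13, but its other probe set gave -0.36, beyond that SD, and the mean of its probe sets -0.25. The differences between genotype labels were thus of similar size in total and polysome RNA for the other 6 genes at their brightest probe sets. A dimmer probe set of Timp2 gave an association difference of -0.25, beyond the SD of 0.22. The other Timp2 probe sets that reached the floor lay within that SD.

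Members whose 4 values spanned at least 1 log2 unit, Fap (1.26) and Timp3 (1.03), were matched with the measured genes of nearest profile. The measure was the Euclidean distance between the 4 values after centring each gene on its mean. Nearest to Fap were Smim26 (distance 0.09), Cdh10 (0.13) and Scarb2 (0.17). Nearest to Timp3 were Tmem37 (0.06), the kinase gene Pdk4 (0.09) and the activin antagonist gene Fst (0.10), which read 10.61 and 11.24 in total and 10.31 and 10.84 in polysome RNA. With 4 arrays such matches describe these libraries only.

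Other genes of the pathway were taken from lists of related proteases, inhibitors, receptors, substrates and regulators. Of the other matrix metalloproteinase genes 14 of 19 were on the array, 5 were measured, and none was past 2-fold between genotype labels. Mmp11 was at 0.45 in total and 0.18 in polysome RNA, and Mmp19 at -0.25 and -0.16. Mmp9, a gelatinase also made by macrophages, was at -0.38 and -0.27, with both total RNA values (6.99 and 6.61) below the floor. Of the other ADAMTS and ADAM genes 11 of 30 were measured, 4 higher and 7 lower in total RNA, with a median of -0.13, and 5 higher and 6 lower in polysome RNA, with none past 2-fold between genotype labels. Adamts4, another aggrecanase gene, was at -0.42 and -0.63, with -0.02 and -0.22 at its other probe set, which lay below the floor. Adam33 was at -0.44 and -0.25. Adam12 was at 0.46 and 0.45, but its other probe set gave 0.18 and 0.12, within the SD between probe sets. In polysome against total RNA Adamts10 was at 0.75 under the wild-type and 1.05 under the heterozygote label.

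The other inhibitors ran in both directions. Of 17 listed 8 were measured, 3 higher and 5 lower in both RNAs, with medians of -0.08 and -0.10 and none past 2-fold. Tfpi2, an inhibitor of plasmin, was at 0.56 and 0.38, with both total RNA values (6.45 and 7.01) below the floor. The cathepsin inhibitor gene Cst3 was at 0.52 and 0.39. Cstb, an intracellular cathepsin inhibitor gene, was at -0.50 and -0.45. In the fraction comparison Tfpi2 was at 1.34 and 1.16 and the complement inhibitor gene Serping1 at -1.26 and -1.20, and both read below the floor in one of the fractions. Reck, a membrane-anchored metalloproteinase inhibitor, was at -0.31 and -0.16; it was named after its value was seen.

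Of the 16 serine and processing protease genes 10 were measured, 4 higher and 6 lower in each RNA, with medians of -0.13 and -0.02 and none past 2-fold between genotype labels. The tissue plasminogen activator gene Plat read 10.16 and 9.35 in total and 10.25 and 9.58 in polysome RNA, differences of -0.81 and -0.67. The procollagen C-proteinase genes Tll1 (-0.78 and -0.66) and Bmp1 (-0.64 and -0.58) were also lower. The proprotein convertase gene Furin, named after its value was seen, was higher, at 0.64 and 0.53. A dimmer probe set of Bmp1 gave -1.12 and -1.09, and the dimmest, below the floor, 0.16 and -0.14. All 9 cathepsin genes were measured, with medians of 0.29 and 0.20, against 0.19 and 0.11 over all measured genes. In each RNA 7 cathepsin genes were higher and 2 lower. Among them were Ctsz (0.54 and 0.20), Ctsh (0.42 and 0.22) and Ctsk (0.38 and 0.14), the last a collagen-degrading enzyme of osteoclasts and fibroblasts. The macrophage cathepsin Ctss was at 2.43 and 2.40 between the fraction labels, but it read 5.43 and 5.72 in total RNA, below the floor, so the size of this difference is uncertain.

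Among 13 receptors and activators of these proteases 11 were measured. Mrc2, the receptor that takes up collagen fragments, was lower by more than 2-fold in total RNA, at 10.23 against 9.12 (-1.10), and at -0.96 in polysome RNA. Its other probe set gave -0.94 and -0.98. Lrp1, the endocytic receptor that clears protease and inhibitor complexes, was at -0.88 and -0.77, and the integrin gene Itgav at -0.65 and -0.46, with larger differences at its dimmer probe sets (-1.48 and -1.79 at one of them). The list as a whole had medians of 0.09 and 0.14, with 7 higher and 4 lower in each RNA.

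Most listed substrates of these enzymes had lower RNA in the libraries labelled heterozygote, with list medians of -0.69 in total and -0.52 in polysome RNA. Below 0 were 15 of 17 measured genes in each, but Col1a1 (-0.17 and -0.13) and Col1a2 (-0.11 and -0.05) differed little. Bgn (0.16 and 0.17) and Dcn (0.23 and 0.02) were higher. The list was chosen with earlier results of these data known, so the shares that follow only describe it. Past 2-fold were 7 of 17 in total RNA, all lower, against 1.49% of all measured genes, and 5 of 17 in polysome RNA, against 1.17%. Besides Tnc, Thbs2, Col4a1 and Col4a2 these were the basement membrane genes Lamb1 (-1.28 and -0.99), Lamc1 (-1.27 and -1.04) and Nid1 (-1.31 and -0.81). Versican (Vcan), a substrate of Adamts1, Adamts4 and Adamts5, was at -0.69 and -0.83. Between fraction labels 3 substrates passed 2-fold under the wild-type label, against 0.919% of all measured genes. Under the heterozygote label, where that share was 0.766%, Dcn and Eln did. Dcn was higher in polysome RNA, at 1.37 and 1.16 under the wild-type and heterozygote labels. Vcan was at 1.00 and 0.86, past 2-fold only under the wild-type label, where its other probe sets gave 0.92 and 0.86. Eln was lower, at -1.79 and -1.73, with -0.80 and -0.73 at its other probe set. Transcription regulators of protease genes had medians of 0.45 and 0.33, against 0.19 and 0.11 over all measured genes. In each RNA 10 of 11 regulators were above 0. They were led by Fos (1.14 and 1.68), Junb (0.95 and 0.69) and Jun (0.81 and 0.87).

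**Figure D5:**
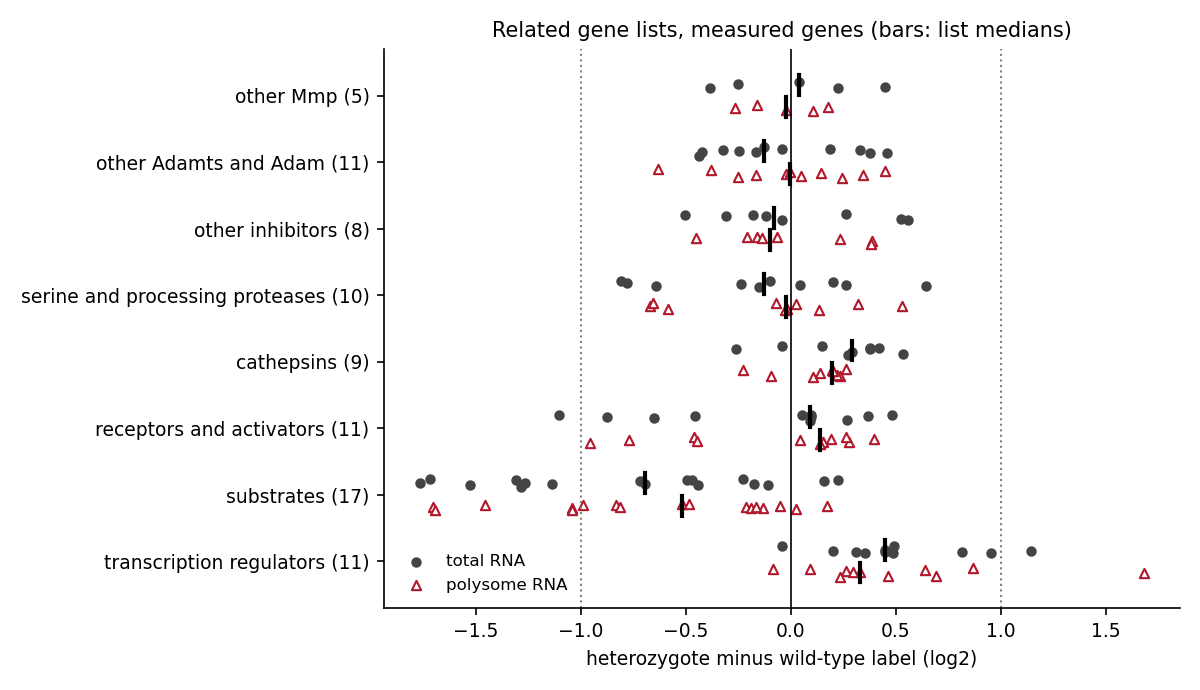
The heterozygote minus wild-type label difference (x axis, log2) of each measured gene of the related lists (rows, with the number measured), in total RNA (filled circles) and polysome RNA (open triangles), with list medians as bars. The substrates lie lowest, with medians of -0.69 and -0.52, and the transcription regulators highest, with 0.45 and 0.33.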

How the data were processed

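The values are log2 as the authors deposited them, with 1 value for each array and probe set. Per the submitters' processing notes they came from R 3.4.3, affy 1.56.0 and RMA, which corrects background, normalises between arrays and summarises probes; the settings are not given in the sources used here. The platform annotation listed 21084 probe sets. Of these, 20380 had 1 symbol and were not manufacturer controls, and 20351 matched RefSeq by Entrez number, which altered 0 symbols. A gene's value is that of its brightest probe set by the mean over arrays. Differences of log2 values were taken for 5 comparisons with Python 3.11.15 and pandas 2.3.3, without tests because there was 1 array per group, and checked on simulated arrays. The number of arrays limits the precision, and no detection calls were used. The members and lists were chosen with earlier results of these data known. Named were all members, Npm1, and from each related list the genes past 2-fold between genotype labels, at least 3 per list, and those past 2-fold between fraction labels. The alternatives tried were the average over a gene's probe sets, no _x_at or _s_at probe sets, other floors, median centring, quantile normalisation, loess subtraction (span 0.3) and thresholds of 1.5-fold and 3-fold.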

Additional observations from a re-analysis of the deposited data

How the results depend on the processing

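The medians of the measured members moved by less than the SD between probe sets in all 5 comparisons under each alternative tried. Of 250 recomputed differences of single members 249 did so too, and the exception was Adamts5 between fraction labels under the heterozygote label, at 0.18 with the mean of all probe sets. No member turned sign between genotype labels in either RNA, but 5 of the 250 differences did elsewhere: Mmp3 and Mmp13 between fractions under the heterozygote label (loess), and the association difference of Mmp2 (mean of probe sets, loess) and Mmp14 (mean of probe sets). The median member, near 0, turned sign between genotype labels in total RNA with quantile normalisation (-0.03) and loess (-0.10), and in polysome RNA with these (-0.03 and -0.10), the mean of probe sets and no floor (-0.06 each). Under the wild-type label the fraction median was -0.004 with median centring, -0.006 with quantile normalisation and -0.001 with loess. Moves by over 1.5 times between genotype labels included Timp3 (0.36 in total RNA, mean of probe sets), Adamts5 (0.12 and 0.07, loess), Mmp14 (-0.37 in total RNA, loess) and Fap (-0.32 in total RNA, loess). The 1 member past 2-fold under the wild-type label (Fap) became 0 with median centring, quantile normalisation, loess subtraction or a threshold of 3-fold. With a threshold of 1.5-fold the counts were 2 between genotype labels in total RNA, 1 in polysome RNA and 1 between fraction labels under the heterozygote label. No replicate could be left out. No paired analysis was possible because there is 1 array per group and the labels carry no replicate numbers. A fit that takes the RNA fractions as replicates of a genotype was not run.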
